A study of Mus musculus with 7 samples.

Results

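The genes described here carry cells from the end of DNA replication through chromosome segregation and division: mitotic cyclins and kinases, the spindle checkpoint, cohesin, condensin, the kinetochore and the spindle. They were chosen by name, as a list of 48 genes, and each was read from the probe set that carried its symbol alone and had the highest mean log2 value over all arrays. Of the 48 genes, 46 were measured in this way, out of 22180 genes on the array, and each of the 46 had a single such probe set. Ccnb1 and Ncapg had no probe set with their symbol alone and were not analysed here. The gene listed as Sgol1 carries the symbol Sgo1 in current annotation.

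RNA came from hematopoietic stem cells of bone marrow, taken as lineage-negative cells that were then sorted by SLAM-family surface markers. The 7 arrays held 3 from Ahr knockout mice (Ahr-KO) and 4 from mice with wild-type Ahr (WT), all on a C57BL/6J background and killed at 8 weeks of age. Biotinylated cDNA was made from the small amounts of total RNA with an amplification kit (Nugen WT-Ovation PicoSL) and hybridised to 1-colour Affymetrix arrays. The labels name no agent and no batch. They do not say which part of Ahr was deleted, whether 1 mouse or several gave each array, or which part of the transcript the Ahr probe set covers. A p-value therefore speaks to array-to-array spread alone, and this may be technical.

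Most hematopoietic stem cells rest outside the cell cycle, and mitotic transcripts are scarce in resting cells. The transcripts accumulate in G2 under the MuvB complex with B-Myb and FoxM1, and are held down in G0 by the DREAM complex, which is built on the same MuvB core. Cohesin is different: its ring holds sister chromatids together in S and G2 phase, but it also folds chromosomes in resting cells, so its core subunits are expressed there too. In bulk RNA of this kind, fewer cycling cells and less mitotic RNA per cycling cell cannot be told apart.

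Promoter sequences of 4 of these genes are shown, chosen from their array values. Cdca5 differed most between the genotypes, and Plk1 was above background on a single array. Ccnb2 and Top2a lay on opposite sides of 0 among the cyclins of S to M phase (S-to-M), Cdk1 and proliferation markers. Each sequence is the RefSeq window of 250 bases before to 50 bases after the annotated start, in GRCm38.p6. It is printed 5′ to 3′ on the gene's own strand. Capitals mark the cell cycle homology region, the letters bound by MuvB complexes (TTTGAA or TTTAAA, either strand), and the CCAAT box bound by NF-Y (CCAAT, either strand). The windows lie at chr19:6084847-6085146 on the plus strand (Cdca5), chr7:122159185-122159484 on the plus strand (Plk1), chr9:70421505-70421804 on the minus strand (Ccnb2) and chr11:99024140-99024439 on the minus strand (Top2a).
Cdca5: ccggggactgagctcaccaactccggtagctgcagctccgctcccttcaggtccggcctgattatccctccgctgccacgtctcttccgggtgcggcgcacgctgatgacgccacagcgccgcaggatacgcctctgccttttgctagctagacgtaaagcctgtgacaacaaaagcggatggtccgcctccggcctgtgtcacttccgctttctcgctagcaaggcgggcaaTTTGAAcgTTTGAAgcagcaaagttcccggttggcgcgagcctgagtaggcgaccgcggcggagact
Plk1: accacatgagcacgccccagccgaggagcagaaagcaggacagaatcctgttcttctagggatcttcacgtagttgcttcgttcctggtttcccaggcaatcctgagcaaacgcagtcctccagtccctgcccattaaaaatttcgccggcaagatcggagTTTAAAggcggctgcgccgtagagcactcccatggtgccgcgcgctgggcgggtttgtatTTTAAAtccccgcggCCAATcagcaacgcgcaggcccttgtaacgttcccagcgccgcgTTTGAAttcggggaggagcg
Ccnb2: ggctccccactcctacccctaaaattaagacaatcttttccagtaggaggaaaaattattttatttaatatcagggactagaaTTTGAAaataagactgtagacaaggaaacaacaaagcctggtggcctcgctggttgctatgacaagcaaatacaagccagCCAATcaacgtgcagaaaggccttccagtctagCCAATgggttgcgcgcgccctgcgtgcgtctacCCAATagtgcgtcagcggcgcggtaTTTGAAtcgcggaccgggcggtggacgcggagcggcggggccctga
Top2a: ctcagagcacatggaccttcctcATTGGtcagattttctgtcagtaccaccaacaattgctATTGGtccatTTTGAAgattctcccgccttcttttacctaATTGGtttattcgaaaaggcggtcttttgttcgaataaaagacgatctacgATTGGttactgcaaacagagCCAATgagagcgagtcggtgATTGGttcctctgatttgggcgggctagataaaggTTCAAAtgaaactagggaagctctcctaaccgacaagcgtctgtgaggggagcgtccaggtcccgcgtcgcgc

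The Cdca5 window held 2 copies of the homology region side by side just before the start, and no CCAAT box. The Plk1 window held 3 and 1, the Ccnb2 window 2 and 3, and the Top2a window 2 and 6. RefSeq windows were found for 37 of the 46 genes. The homology region letters stood in 27 of the 37 (73%), against 30.6% of all 27025 genes with a window and 28.2% of the 17491 protein-coding ones. CCAAT stood in 28 of the 37 (75.7%), against 41.1% and 42.3%. The E2F letters TTCGCGC or TTGGCGC or TTCCCGC stood in 8 of the 37 (21.6%), against 9.2% and 11.8%. The core of the AhR response element, GCGTG on either strand, stood in 23 of the 37 (62.2%), against 35.2% and 41.4%. Of the windows shown, those of Cdca5, Plk1 and Ccnb2 held 1 copy each and that of Top2a held 0. A match describes letters in the window, not a site in use.

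The deposited intensities give no detection call, so the background was marked, array by array, by the 1091 probe sets of olfactory receptors, at their 95th percentile (33.8 to 42.9). Median intensity was 16.89 to 20.27 on the Ahr-KO arrays and 16.95 to 22.13 on the WT arrays, and the share of tested probe sets above the mark was 34.8 to 41.9% and 30.6 to 44.7%. Ahr stood at 34.1, 137 and 26.4 across Ahr-KO, against 31.3, 57.9, 14.9 and 20.5 across WT, so its probe set does not check the genotype labels. Of 10 measured stem cell markers, 4 exceeded the mark on all 7 arrays (Kit, Hlf, Meis1 and Gata2) and 4 on 6 arrays. Slamf1, which encodes CD150, exceeded it on 3 Ahr-KO arrays and 1 WT array, and Fgd5 on 2 WT arrays and no Ahr-KO array. Slamf1 stood at 57.4, 78 and 236 across Ahr-KO, against 4.56, 23.3, 7.81 and 73.3 across WT. Of 12 granulocyte and monocyte markers, 6 exceeded it on all 7 arrays, Mpo, Elane and Prtn3 among them, and 1, Cd14, on none. Of 7 B cell markers, 4 exceeded it on none.

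Some mitotic transcripts were detected on every array. Of the 46 genes, 15 exceeded the background mark on all 7 arrays, against 13.7% of all genes, and none of the 46 stayed below it throughout, against 34.4% of all genes. The 15 held 5 of 7 cohesin genes and 4 of 5 genes in the group of S-to-M cyclins, Cdk1 and proliferation markers. They also held 2 each of the kinase, anaphase and condensin groups. They included 0 of the checkpoint, kinetochore and spindle groups. Mki67, the proliferation antigen, stood at 52.5, 365 and 126 across Ahr-KO, against 143, 376, 69.8 and 152 across WT. All of these values lay above the mark, and the WT values lay within the range of the Ahr-KO values except for WT replicate 2.

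The genotypes did not separate as a whole. The mean log2 level of the 46 genes was 5.51, 7.27 and 6.17 across Ahr-KO, against 6.47, 5.84, 6.25 and 6.62 across WT. The 4 WT arrays all lay between the lowest and the highest Ahr-KO array. The group means were 6.32 ± 0.88 for Ahr-KO (SD, n = 3) against 6.29 ± 0.34 for WT (SD, n = 4), a difference of 0.02 log2 units. Without Ahr-KO replicate 2 this difference was -0.45, and without Ahr-KO replicate 1 it was 0.43. The plot of levels by role group shows the same 7 arrays for each set of genes.

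**Figure D1:**
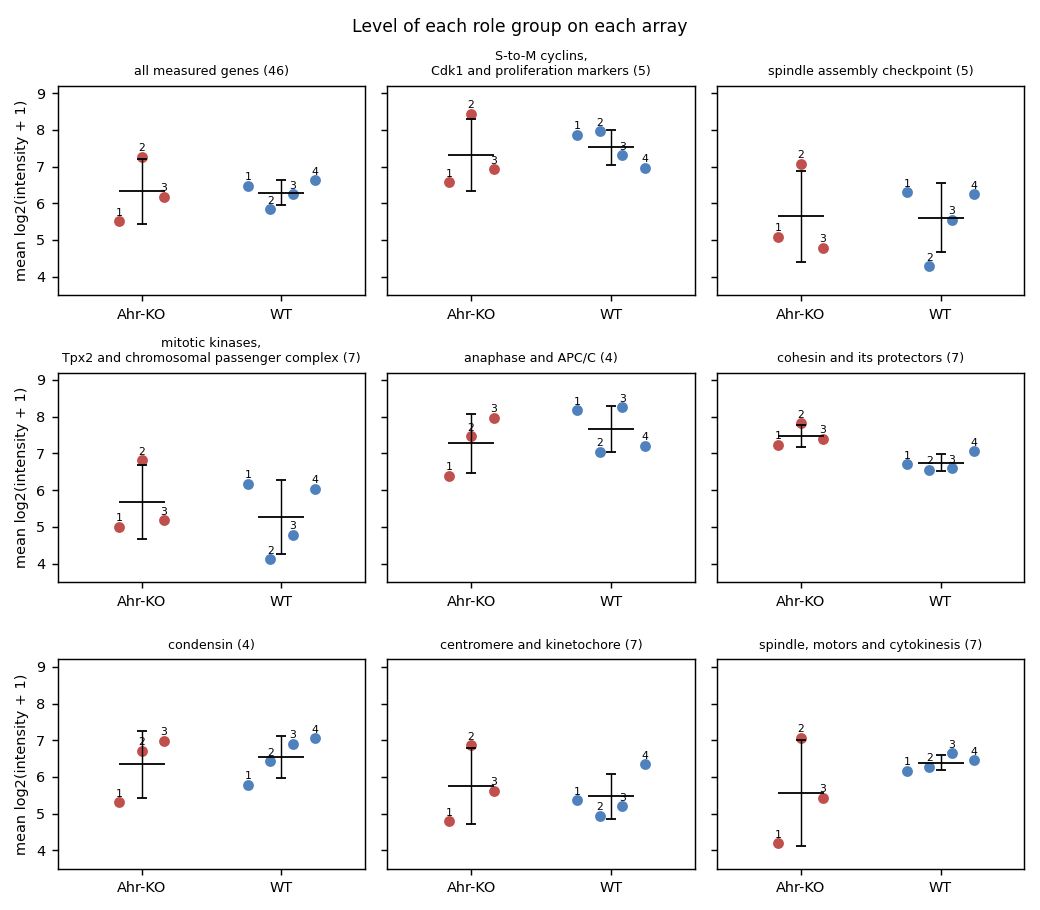
Mean log2(intensity + 1) of all 46 measured genes and of each role group, with the number of genes in brackets. Each point is an array, numbered by replicate, with Ahr-KO in red and WT in blue; horizontal lines are group means and bars are SDs (n = 3 and 4). Ahr-KO replicate 2 is the highest Ahr-KO array in 6 of the 8 role groups, and the cohesin group is the panel where the genotypes do not overlap.

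None of the 46 genes passed an adjusted p of 0.05 in limma, and none of all 22180 genes did (0%). At an unadjusted p under 0.05 there were 2 of 46 genes (4.35%), Cdca5 and Stag2, against 4.02% of all genes, and an unmoderated test likewise gave 0 adjusted and 2 unadjusted. That share is close to the background. The 2 genes lay on opposite sides, 1 higher in Ahr-KO (1.98% of all genes) and 1 lower (2.04%). Values did not overlap between the genotypes for 1 gene (2.17%), Cdca5, against 5.78% of all genes (2.62% higher and 3.15% lower in Ahr-KO). Differences were above 0 for 20 of 46 genes (43.5%), against 48.4% of all genes. Their median was -0.09 log2 units, against -0.03 over all genes, and the quartiles were -0.72 and 0.47 against -0.55 and 0.49. The median residual SD was 1.28 log2 units, against 0.93 over all genes.

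**Figure D2:**
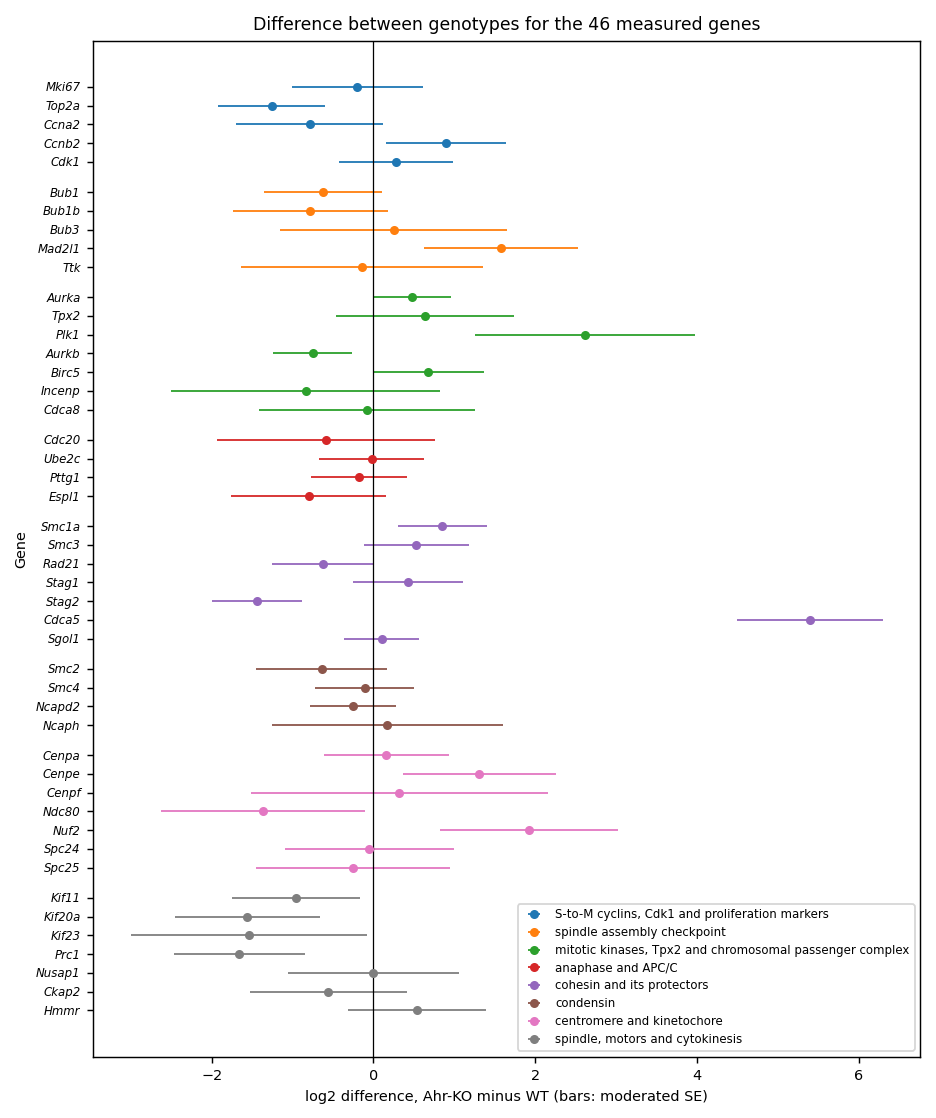
Log2 difference, Ahr-KO minus WT, of the 46 measured genes, grouped and coloured by role; points are limma estimates from 7 arrays and bars are moderated standard errors. Cdca5 stands at 5.40, far to the right, and the other 45 genes lie between -1.66 and 2.62.

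Ahr-KO replicate 2 stood above the other Ahr-KO arrays for much of the list. It held the highest of the 7 values for 14 of the 46 genes (30.4%), against 13.4% of all genes. It exceeded both other Ahr-KO arrays for 30 of the 46 genes (65.2%), against 35.1% of all genes. The median gap to the mean of the other Ahr-KO arrays was 1.28 log2 units, against 0.11 over all genes. Set against the mean of all genes on the same array, the level of the 46 genes was 0.84, 2.22 and 1.36 log2 units higher in Ahr-KO and 1.60, 1.24, 1.43 and 1.49 higher in WT. The heat map shows the red column of Ahr-KO replicate 2 for Ttk, Plk1, Tpx2, Spc25, Kif23 and Hmmr.

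**Figure D3:**
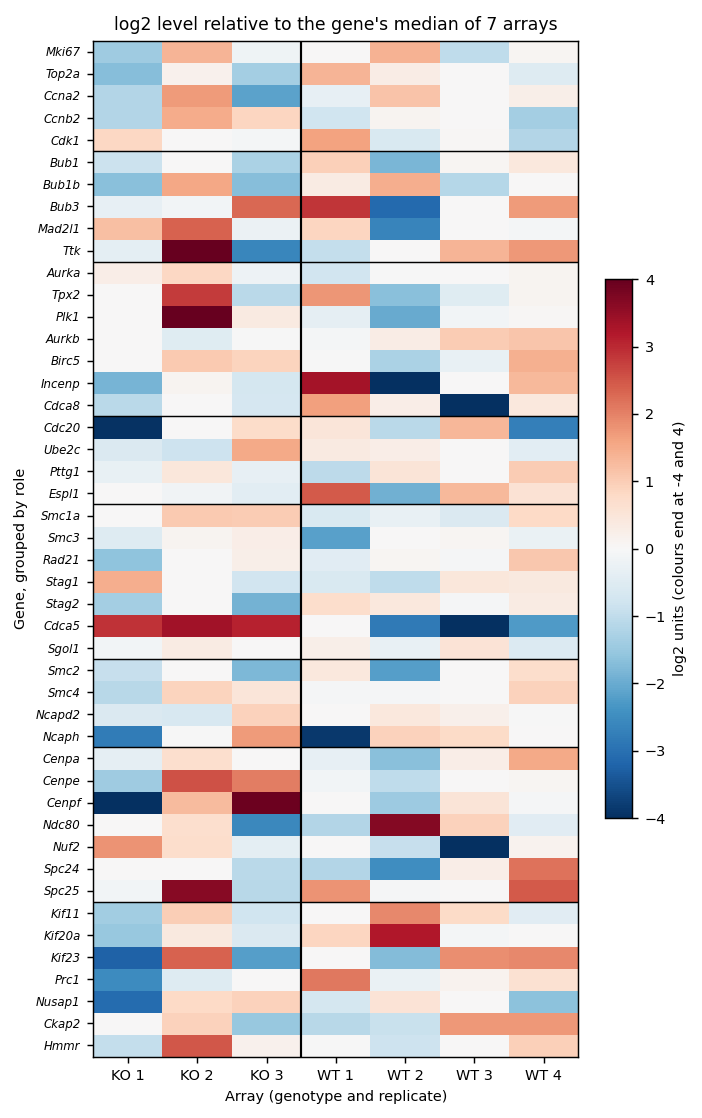
Log2(intensity + 1) of each of the 46 genes on each array, minus the gene's median over the 7 arrays, with genes grouped by role (horizontal lines) and Ahr-KO left of WT (vertical line); red is above and blue below the median. Ahr-KO replicate 2 is red for many genes that are blue on the other Ahr-KO arrays, and Cdca5 is the row that is red on all 3 Ahr-KO arrays and pale or blue on all 4 WT arrays.

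Markers of more mature cells also varied between these arrays. The summed intensity of 12 granulocyte and monocyte markers was 6830, 17901 and 9309 across Ahr-KO, against 1174, 16325, 7942 and 5678 across WT, and 11 of the 12 had a positive difference. None of the 12 was listed at 0 on any array. On WT replicate 2, which had a sum near that of Ahr-KO replicate 2, the mean level of the 46 genes was the lowest of the WT arrays. That array was also the dimmest WT array over all genes, with a mean log2 level of 4.60, against 4.87, 4.82 and 5.13 on WT replicates 1, 3 and 4. The summed intensity of 7 erythroid markers was 586, 1600 and 699 across Ahr-KO, against 1199, 3190, 1531 and 1663 across WT, and 3 of the 7 had a positive difference. Among them the erythroid carbonic anhydrase gene Car1 stood at 1.33, 593 and 0.2 across Ahr-KO, against 73.5, 483, 120 and 208 across WT. The other erythroid markers did not share that pattern. Car2, the brightest of the 7 on every array, stood at 359, 607 and 343 across Ahr-KO, against 948, 1337, 1210 and 1260 across WT. Tfrc was lowest on Ahr-KO replicate 2, at 22.1. Gata1 stood at 1299 on WT replicate 2. The positive differences were those of Klf1 (1.06), Epor (2.25) and Ermap (0.08). Of the 6 macrophage and dendritic cell markers 5 had a negative difference, and their mean log2 level was 4.29, 5.06 and 4.58 across Ahr-KO, against 5.56, 5.37, 5.35 and 5.66 across WT, without overlap. Adgre1, which encodes F4/80, and Itgax, which encodes CD11c, exceeded the background mark on no array. The other macrophage and dendritic markers did: H2-Aa on all 7 arrays, H2-Eb1 on 6, C1qa on 4 and Mrc1 on 3. H2-Eb1, a class II gene, stood at 16.4, 43.4 and 132 across Ahr-KO, against 170, 441, 228 and 160 across WT. The part of these cells in the mitotic values was not tested.

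Among the S-to-M cyclins, Cdk1 and proliferation markers, the 5 measured members gave 2 positive and 3 negative differences, with a median of -0.20. Top2a, the topoisomerase that untangles sister chromatids, stood at 41.6, 155 and 53.6 across Ahr-KO, against 354, 172, 139 and 97.7 across WT. Ahr-KO replicates 1 and 3 lay below every WT array, while replicate 2 lay among them. Ahr-KO differed from WT by -1.26 ± 0.66 log2 units (SE; limma adjusted p = 0.963). Ccna2, the cyclin of S and G2 phase, stood at 52.6, 387 and 25.9 across Ahr-KO, against 93.4, 260, 119 and 140 across WT, with a difference of -0.79 ± 0.91 (SE). Ahr-KO replicates 1 and 3 lay below every WT array, as for Top2a, but replicate 2 lay above all of them. Ccnb2, a B-type cyclin, stood at 218, 1364 and 881 across Ahr-KO, against 278, 524, 489 and 191 across WT. Ahr-KO replicates 2 and 3 lay above all WT arrays, and the difference was 0.90 ± 0.74 (SE; limma adjusted p = 0.963), which became 0.36 without Ahr-KO replicate 2. Cdk1, the kinase that these cyclins activate, stood at 290, 163 and 156 across Ahr-KO, against 502, 108, 169 and 71.9 across WT, a full overlap.

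The spindle assembly checkpoint delays anaphase until every kinetochore is attached. Its 5 genes gave 2 positive and 3 negative differences, with a median of -0.14. Mad2l1, whose product is the checkpoint inhibitor of Cdc20, stood at 264, 593 and 98.1 across Ahr-KO, against 209, 17.5, 115 and 108 across WT. Ahr-KO replicates 1 and 2 lay above every WT array and replicate 3 below 3 of them. Ahr-KO differed from WT by 1.58 ± 0.95 log2 units (SE; limma adjusted p = 0.963), which became 0.95 without Ahr-KO replicate 2. Ttk, the kinase that starts checkpoint signalling, was listed at 3.64, 106 and 0 across Ahr-KO, against 2.11, 5.06, 14.5 and 19 across WT, so it exceeded the background mark on Ahr-KO replicate 2 alone. Bub1b, the gene of BubR1, stood at 18.5, 178 and 17.9 across Ahr-KO, against 76, 170, 27 and 60.9 across WT. Bub1, a checkpoint kinase, stood at 42.2, 77 and 31.1 across Ahr-KO, against 150, 21.1, 81.3 and 103 across WT. Bub3, which docks Bub1 and BubR1 at kinetochores, ranged from 43 to 272 across Ahr-KO, against 5.45 to 399 across WT. The values of all 5 genes overlapped between the genotypes.

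Mitotic kinases and the chromosomal passenger complex, which corrects faulty attachments, gave 4 positive and 3 negative differences in 7 genes, with a median of 0.48. Plk1, the kinase of mitotic entry and spindle poles, stood at 16.9, 919 and 21.9 across Ahr-KO, against 13.1, 3.47, 15.7 and 17.4 across WT. It exceeded the background mark on Ahr-KO replicate 2 and on no other array. The log2 difference of 2.62 ± 1.36 (SE; limma adjusted p = 0.963) was 0.78 without that array. Tpx2, which activates Aurora A on spindle microtubules, stood at 20.9, 152 and 9.28 across Ahr-KO, against 73.2, 5.92, 14.6 and 22.8 across WT, again highest on Ahr-KO replicate 2. Aurka, the gene of Aurora A, stood at 28.4, 42.3 and 19.9 across Ahr-KO, against 13.1, 22.8, 23.3 and 24.9 across WT, above the mark on Ahr-KO replicate 2 alone.

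Aurkb, the kinase of the passenger complex, was not highest on that array. It stood at 100, 71.4 and 99.7 across Ahr-KO, against 95.3, 122, 205 and 219 across WT, and differed by -0.75 ± 0.49 (SE; limma adjusted p = 0.963). WT replicate 1 lay inside the Ahr-KO range and the other WT arrays above it. Birc5, which encodes survivin, stood at 138, 284 and 257 across Ahr-KO, against 137, 57, 112 and 376 across WT. Its difference was 0.68 ± 0.69 (SE), or 0.27 at the lowest when single arrays were left out. Incenp, the scaffold, stood at 5.86, 25.9 and 14.4 across Ahr-KO, against 248, 0.07, 24 and 60.9 across WT, and Cdca8, which encodes borealin, ranged from 30.4 to 65.9 across Ahr-KO, against 2.21 to 207 across WT. The 4 genes of the complex thus did not share a direction.

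The anaphase group had no positive difference among its 4 genes, with a median of -0.38, and each of the 4 lay within 1 standard error of 0. Without Ahr-KO replicate 1, Cdc20 stood at 0.86 and Ube2c at 0.29. Ube2c, the ubiquitin-conjugating enzyme of the anaphase-promoting complex (APC/C), stood at 336, 285 and 1455 across Ahr-KO, against 649, 614, 507 and 376 across WT. Ahr-KO replicate 3 was the highest and the other Ahr-KO arrays the lowest of all 7, and the difference was -0.02 ± 0.65 (SE), which was positive when either Ahr-KO replicate 1 or 2 or WT replicate 1 or 2 was left out. Pttg1, the gene of securin, which restrains separase, differed by -0.18 ± 0.59 (SE). Espl1, the gene of separase, the protease that opens cohesin, stood at 34.7, 31.4 and 25.4 across Ahr-KO, against 196, 8.35, 87.6 and 52.8 across WT. It exceeded the background mark on no Ahr-KO array and on 3 WT arrays, and it differed by -0.80 ± 0.96 (SE; limma adjusted p = 0.964), which became -0.18 without WT replicate 1 and -1.65 without WT replicate 2. Cdc20, the APC/C activator, ranged from 14.7 to 401 across Ahr-KO, against 35.5 to 613 across WT.

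In the cohesin group the levels of the genotypes did not overlap. The mean log2 level was 7.23, 7.82 and 7.40 across Ahr-KO, against 6.71, 6.56, 6.60 and 7.06 across WT. The means were 7.48 ± 0.30 for Ahr-KO (SD, n = 3) against 6.74 ± 0.23 for WT (SD, n = 4). That gap rested on Cdca5. Without Cdca5 the other 6 genes averaged 7.31 ± 0.31 for Ahr-KO (SD, n = 3) against 7.33 ± 0.34 for WT (SD, n = 4).

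Cdca5 encodes sororin, which keeps the cohesin ring closed on replicated sister chromatids by countering the releasing factor Wapl. Its intensity was 321, 441 and 364 across Ahr-KO, against 42.1, 5.07, 1.57 and 8.05 across WT. Every Ahr-KO array lay far above every WT array, and among the WT arrays only replicate 1 exceeded the background mark of its array (39.2). The log2 difference was 5.40 ± 0.90 (SE), with an unadjusted p of 0.000335 and a limma adjusted p of 0.961 over the 25335 probe sets fitted. Because the WT values lay mostly below the mark, its size depends on the pseudocount: it was 3.86 with 16 in place of 1, where the limma adjusted p was 0.353 and the difference ranked 6 of 22180 genes, highest first, against 1 of 22180 with a pseudocount of 1. Over 17 alternatives the difference ran from 3.86 to 6.16 and the adjusted p from 0.353 to 0.996. Across the 7 arrays the correlation of Cdca5 with the mean of the other 45 genes was 0.01. Most of the spread of Cdca5 was its gap between the genotypes, while the other 45 averaged 6.27 for Ahr-KO and 6.36 for WT. The correlation therefore cannot show whether Cdca5 follows them within a genotype. Within Ahr-KO, Cdca5 and that mean were both highest on replicate 2 and lowest on replicate 1, and within WT they shared neither extreme.

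The cohesin ring genes did not share that difference. Smc1a, a ring subunit with an ATPase head, stood at 204, 421 and 412 across Ahr-KO, against 133, 165, 138 and 358 across WT, with a log2 difference of 0.85 ± 0.55 (SE; limma adjusted p = 0.963). All 3 Ahr-KO values lay above WT replicates 1 to 3, and those of Ahr-KO replicates 2 and 3 lay above WT replicate 4 too. Smc3, its partner, differed by 0.53 ± 0.65 (SE), with WT replicate 1 at 53.6 below the other WT arrays (201 to 256) and Ahr-KO at 169, 260 and 290. Rad21, which closes the ring and is cut by separase, stood at 131, 401 and 471 across Ahr-KO, against 294, 421, 387 and 857 across WT. Its difference was -0.63 ± 0.63 (SE; limma adjusted p = 0.963), which became -0.05 without Ahr-KO replicate 1.

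The alternative cohesin subunits Stag1 and Stag2 had differences of opposite sign. STAG2 is recurrently mutated in human myeloid neoplasms. Stag2 stood at 83.3, 217 and 58.1 across Ahr-KO, against 352, 292, 212 and 273 across WT. Ahr-KO replicates 1 and 3 lay well below all WT arrays, and replicate 2 lay just above the lowest WT array. The log2 difference was -1.44 ± 0.56 (SE), with an unadjusted p of 0.0334 and a limma adjusted p of 0.963, and it ran from -1.98 to -1.04 over 17 alternatives. Stag1 stood at 488, 178 and 104 across Ahr-KO, against 116, 86.7, 242 and 231 across WT, a difference of 0.43 ± 0.68 (SE) with overlapping genotypes and Ahr-KO replicate 1 the highest array. The difference between the 2 genes was not tested. Sgol1, whose product shields centromeric cohesin, stood at 27.8, 37.9 and 29.9 across Ahr-KO, against 35.3, 23.9, 43.9 and 20.3 across WT, near or below the background mark.

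**Figure D4:**
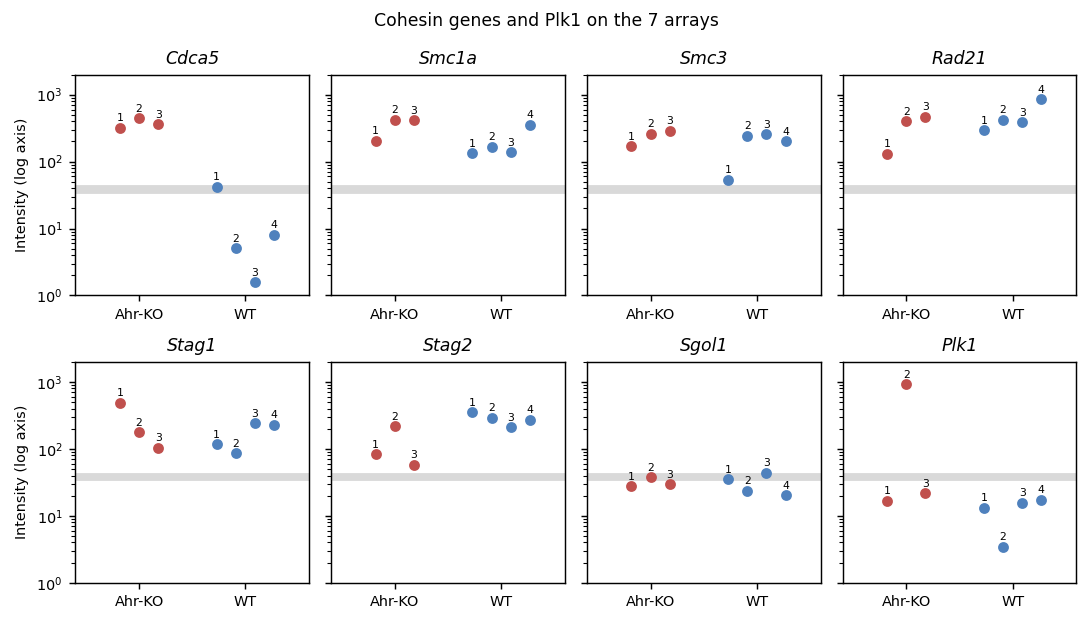
Intensity of the 7 cohesin genes and of Plk1 on each array, on a log axis, with Ahr-KO in red left of WT in blue and replicates numbered; the grey band is the range of the background marks over the 7 arrays. Cdca5 lies above the band on the 3 Ahr-KO arrays and inside or below it on the 4 WT arrays, while Plk1 lies above the band on Ahr-KO replicate 2 alone.

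Condensin compacts mitotic chromosomes, and its 4 measured genes gave 1 positive and 3 negative differences, with a median of -0.18. Smc4, an ATPase subunit, stood at 75.4, 305 and 230 across Ahr-KO, against 158, 159, 163 and 309 across WT, a difference of -0.11 ± 0.61 (SE). WT replicates 1 to 3 lay close together, between the Ahr-KO values. Smc2, its partner, stood at 51.3, 98.8 and 28 across Ahr-KO, against 134, 20.5, 99.7 and 160 across WT, a difference of -0.64 ± 0.81 (SE). Ncapd2, a HEAT-repeat subunit of condensin I, stood at 124, 117 and 347 across Ahr-KO, against 184, 248, 213 and 182 across WT, so the Ahr-KO arrays lay on both sides of the narrow WT range. Ncaph, the kleisin that joins the ATPase heads, ranged from 3.93 to 110 across Ahr-KO, against 1.35 to 64.4 across WT.

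Centromere and kinetochore genes gave 4 positive and 3 negative differences among 7, with a median of 0.16. Nuf2 and Ndc80, whose products pair in the complex that grips microtubules, had opposite signs. Nuf2 stood at 302, 139 and 65.1 across Ahr-KO, against 86.1, 44.5, 4.06 and 95.9 across WT, and differed by 1.92 ± 1.10 (SE; limma adjusted p = 0.963), which became 0.96 at the lowest when single arrays were left out. Ndc80 stood at 18, 29.5 and 2.19 across Ahr-KO, against 7.52, 239, 35 and 12.8 across WT, above the mark on WT replicate 2 alone, with a difference of -1.37 ± 1.26 (SE). Their partners Spc24 and Spc25 differed by -0.05 ± 1.05 (SE) and -0.25 ± 1.20 (SE). Spc24 was highest on WT replicate 4, at 655, and Spc25 on Ahr-KO replicate 2, at 265. The 4 genes of this complex thus peaked on 4 different arrays.

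Cenpe, a kinetochore motor, stood at 11.5, 196 and 139 across Ahr-KO, against 30.4, 15.7, 32.7 and 34.6 across WT, and Cenpf, a kinetochore protein of G2 and mitosis, at 0 (as listed), 73.2 and 468 across Ahr-KO, against 30, 10.3, 43.2 and 28.9 across WT. For both genes Ahr-KO replicates 2 and 3 lay above all WT arrays and replicate 1 below all of them or at 0. Their differences were 1.31 ± 0.95 (SE) and 0.32 ± 1.84 (SE), and without Ahr-KO replicate 1 they were 2.56 and 2.84. Cenpa, the centromeric histone H3 variant, ranged from 57.3 to 118 across Ahr-KO, against 22.4 to 215 across WT.

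The spindle and cytokinesis group had the lowest median, -0.96, with 2 positive and 5 negative differences among 7 genes. Its mean log2 level was 4.19, 7.07 and 5.44 across Ahr-KO, against 6.17, 6.28, 6.64 and 6.46 across WT. Ahr-KO replicates 1 and 3 lay below, and replicate 2 above, all 4 WT arrays. Prc1, which bundles microtubules of the central spindle, stood at 13.4, 57.3 and 82.3 across Ahr-KO, against 355, 68.2, 91.1 and 127 across WT. Its difference of -1.66 ± 0.81 (SE; limma adjusted p = 0.963) was the lowest of the 46 genes with all arrays in the fit, and it ran from -2.17 to -0.91 when single arrays were left out. Ndc80 was lowest without Ahr-KO replicate 1, at -1.69, and Kif23 without Ahr-KO replicate 2, at -3.23. WT replicate 2 was the WT array inside the Ahr-KO range of Prc1.

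Kif23, a motor of the central spindle, stood at 3.28, 206 and 7.81 across Ahr-KO, against 39.4, 11.1, 145 and 153 across WT. Ahr-KO replicate 2 was the highest and the other Ahr-KO arrays the lowest of all 7, so its difference of -1.54 ± 1.46 (SE) was -3.23 ± 1.13 (SE) without that array. Kif11, which slides spindle poles apart, stood at 31, 164 and 47.4 across Ahr-KO, against 82.5, 318, 141 and 60.1 across WT. Kif20a, a motor of cytokinesis, stood at 12.1, 47.8 and 24.2 across Ahr-KO, against 66.8, 342, 34.3 and 36.4 across WT. Nusap1, a spindle-bundling protein, stood at 21, 327 and 356 across Ahr-KO, against 114, 270, 186 and 59.3 across WT, a difference of 0.00 ± 1.06 (SE). Hmmr, a spindle-assembly factor, stood at 15.9, 179 and 36 across Ahr-KO, against 30.9, 17.3, 31.5 and 62.3 across WT. Ckap2, a microtubule-nucleating protein, ranged from 24 to 134 across Ahr-KO, against 31.9 to 239 across WT.

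Leaving out an array moved the genes near the threshold. Without Ahr-KO replicate 2, 15 of the 46 differences were above 0 (32.6%), against 46.4% of all genes, and their median was -0.45 against -0.08. In that fit 6 of 46 genes (13%) had an unadjusted p under 0.05, against 5.16% of all genes. Cdca5 was higher in Ahr-KO, and Top2a, Ccna2, Bub1b, Stag2 and Kif23 were lower, with differences of -1.82, -1.91, -1.85, -1.98 and -3.23. Without Ahr-KO replicate 1 the other side gained: 5 of 46 genes (10.9%) had an unadjusted p under 0.05, against 4.05% of all genes, and all 5 were higher in Ahr-KO. They were Cdca5, Ccnb2, Plk1, Cenpe and Cenpf. Without Ahr-KO replicate 3 the count was 2 genes (4.35%), against 4.23% of all genes. Without WT replicate 1 it was 1 gene, against 3.71%, without WT replicate 2 it was 3 genes, against 4.51%, without WT replicate 3 it was 2 genes, against 3.63%, and without WT replicate 4 it was 1 gene, against 4.43%. No gene passed the adjusted threshold in any of them.

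**Figure D5:**
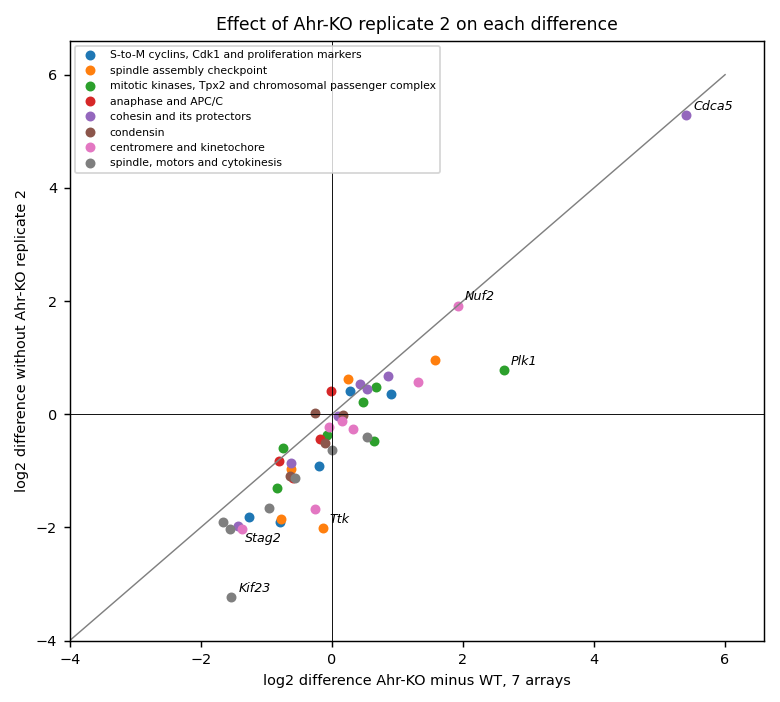
Log2 difference, Ahr-KO minus WT, without Ahr-KO replicate 2 (vertical axis) against the difference from all 7 arrays (horizontal axis) for the 46 genes, coloured by role; the diagonal marks equal values. Of the 46 points, 39 lie below the diagonal, Plk1 drops to 0.78 and Kif23 to -3.23, and Cdca5 stays near the diagonal at 5.28.

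Genes of the list moved together only weakly across arrays. The mean pairwise correlation of log2 values was 0.13 over the 7 arrays, against 0.01 among all genes, and 0.07 without Ahr-KO replicate 2. It was 0.08 after median centring of the arrays, and 0.02 over the 4 WT arrays alone. The arrays of a pair of genes share labelling and scanning, so this is a description. Hmmr followed the mean of the other 45 genes most closely, with a correlation of 0.95 over 7 arrays, followed by Smc4 at 0.82 and by Spc25 and Kif23 at 0.81. Ube2c and Ncapd2 ran against it, at -0.30 each. Of the 27 genes with the homology region letters in their promoter window, 10 had their highest value on Ahr-KO replicate 2, and of the 10 without, 2 did. Differences were above 0 for 11 of the 27 and for 8 of the 10. Over all genes, 13.4% had their highest value on that array and 48.4% had a difference above 0. The counts are small and the genes share the same 7 arrays, and a link with the letters was not tested.

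Another 97 measured genes of mitosis, cohesion and the kinetochore, outside the list of 48, gave 42 positive and 55 negative differences, with a median of -0.27. Their mean level was 4.86, 6.34 and 5.26 across Ahr-KO, against 5.84, 4.94, 5.48 and 6.25 across WT, so Ahr-KO replicate 2 was highest here as well. None passed the adjusted threshold, and 5 of 97 had an unadjusted p under 0.05, against 4.02% of all genes. All 5 were lower in Ahr-KO, where the background for that direction was 2.04%. Zwint, a kinetochore scaffold gene, stood at 3.53, 24.7 and 11.9 across Ahr-KO, against 451, 37.1, 52.8 and 182 across WT, with no overlap (limma adjusted p = 0.963). It exceeded the background mark on no Ahr-KO array, so no size is given for its difference. Cdc27, an APC/C subunit gene, stood at 10, 114 and 48.5 across Ahr-KO, against 200, 343, 162 and 555 across WT, also with no overlap, and differed by -2.82 ± 0.85 (SE; limma adjusted p = 0.963).

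Mybl2, which encodes B-Myb, did not overlap either, which makes 3 of the 97 genes, all lower, where the share of all genes lower without overlap was 3.15%. It stood at 22.4, 5.5 and 14 across Ahr-KO, against 96.7, 27.4, 23.7 and 44.3 across WT. It exceeded the background mark on no Ahr-KO array and on 2 WT arrays. Mybl2 had 2 probe sets with its symbol alone, and these values are from the one of higher mean log2 value. Pbk, a mitotic kinase gene, stood at 7.47, 303 and 7.85 across Ahr-KO, against 202, 151, 260 and 234 across WT, low on the same Ahr-KO arrays as Kif23. Cenpi, a constitutive centromere gene, exceeded the mark on no Ahr-KO array and on 3 WT arrays. By group, negative differences outnumbered positive ones in cohesin regulators (7 of 12), condensin II and related genes (4 of 6), other kinetochore genes (16 of 25) and other spindle genes (11 of 20). They were as many as the positive ones in other mitotic regulators (11 of 22) and in APC/C subunits (6 of 12).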

How the data were processed

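The deposited table gives 1 linear intensity per probe set and array, which the authors made with Affymetrix Expression Console, per the submitters' processing notes. No source used here gives the algorithm, the background correction or the normalization. Arrays have no read depth: their number limits the precision. Of 41155 rows, 25335 were listed in the platform annotation, 23521 of them with 1 symbol, 1814 with several and the other 15820 unnamed here. Of the rows with 1 symbol, 23328 matched RefSeq (GRCm38.p6) by Entrez ID.

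Intensities were taken as log2(intensity + 1), a scale that understates fold changes of dim genes. The 25335 rows were fitted with limma 3.58.1 (lmFit, eBayes, R 4.3.3) on genotype alone. Two-sided p-values received the Benjamini-Hochberg adjustment over all 25335, with a threshold of 0.05. Shares of all genes use 1 probe set per gene (22180). Standard errors are moderated.

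The genes, role groups, lists and the background mark were chosen with earlier results of these data known. The rule for per-array values took genes under 0.05 unadjusted, genes without overlap, and the gene of highest mean and of smallest p in each role group. Per-array values of other genes on the list were added after they were seen. The procedure was tested on simulated data. Alternatives were each array left out, a replicate block, quantile normalization, median centring, a pseudocount of 16, a filter on dim probe sets, all rows, the mean of a gene's probe sets, array weights, a trended robust prior and an unmoderated test.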

Additional observations from a re-analysis of the deposited data

Results flagged for a closer look

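Among the 4 WT arrays, a single array stood apart from the rest for 4 of the 46 genes. The nominal rate of the check is about 1 in 20 groups. The share over all genes is not given here, so no excess is read from the count. The values are log2(intensity + 1). Aurka was low on WT replicate 1, at 3.82 against 4.57, 4.60 and 4.69. Smc3 was low on the same array, at 5.77 against 7.66, 7.93 and 8.00. Cenpe was low on WT replicate 2, at 4.06 against 4.97, 5.07 and 5.15. Smc4 was high on WT replicate 4, at 8.27 against 7.31, 7.32 and 7.36. Aurka exceeded the background mark on no WT array and Cenpe on 1, so their flags rest on dim signal. Smc3 and Smc4 exceeded it on all 4. The Ahr-KO group of 3 arrays is too small for this check, so Plk1 on Ahr-KO replicate 2 could not be examined by it.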

How the results depend on the processing

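None of the 46 genes passed the adjusted threshold under any of the 17 alternatives. The unadjusted count was 2 with limma, 2 with the unmoderated test, and between 1 and 6 without single arrays. The replicate block gave 0 past the adjusted threshold and 3 unadjusted, with 23 genes higher, where 50.5% of all genes were higher. The share of all genes at an unadjusted p under 0.05 is not given for that fit. Deviations of same-numbered arrays from their genotype means had correlations of 0.0227, -0.0646 and 0.0101. The labels do not say whether same-numbered arrays were handled together, and with so few arrays these correlations do not settle it. With any 1 array removed, the count of genes higher in Ahr-KO ran from 15 to 25, against 46.4 to 50.8% of all genes. The mean level then differed by -0.45 to 0.43. Cdca5 and Stag2 kept their direction in all 17, and so did Top2a, Ccnb2, Mad2l1, Plk1, Birc5, Espl1, Rad21, Smc2, Nuf2 and Prc1. The share of all genes with a changed sign is not given here. Among the 46 genes the sign changed for 23 when some single array was left out, and for 3 to 9 per array. These were not all near 0: Cdc20 went to 0.86 and Stag1 to -0.18 without Ahr-KO replicate 1 (-0.59 and 0.43 with all arrays), and Tpx2 to -0.48 and Hmmr to -0.41 without Ahr-KO replicate 2 (0.64 and 0.54). Leaving out single arrays gave Ube2c from -0.76 to 0.41, Ncapd2 from -0.76 to 0.02, Spc24 from -0.78 to 0.77 and Nusap1 from -0.69 to 1.32. The replicate block gave Spc24 0.77 and Nusap1 -0.39. Quantile normalization gave Nusap1 -0.01, and median centring gave Ube2c 0.04 and Spc24 0.00. The cause was not tested. The mean of a gene's probe sets equals the single probe set here. Of the 46 genes, 31 lay below the background mark on at least 1 array, where differences rest on dim signal.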
